A study of Rattus norvegicus with 6 samples.

Results

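The genes described here encode C2H2 zinc finger proteins, each row of the deposited table with the family entry zf-C2H2, a symbol beginning with Zfp or Znf, and a mean level of at least 1 FPKM over the 6 libraries. FPKM is the fragment count of a gene scaled by its length and by a factor for its library. Of 34257 genes in the table, 214 had the family entry and such a name, and 173 of these reached the level. All 173 were annotated as protein coding. The genes were selected on 1 measured value, their mean FPKM over both groups, so levels are given as a description. The difference between treatments is not part of the rule, but a gene near 1 FPKM could meet it through 1 group alone. The genes were also chosen with earlier results of these data known. The cells were ventricular heart muscle cells isolated from newborn rats and cultured. In the perhexiline group they had received perhexiline at 1 µM for 24 h, and in the vehicle group vehicle, with 3 poly(A) libraries each. Perhexiline is an antianginal drug that inhibits the carnitine shuttle, by which long-chain fatty acids enter mitochondria. The labels do not name the vehicle, the number of litters or animals pooled, or whether replicates were separate cultures. A p-value here therefore sets a difference against the spread of these 6 libraries, which could be technical.

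A C2H2 zinc finger is a short fold in which a zinc ion is held by a pair of cysteines and a pair of histidines, and arrays of such fingers read DNA sequence. In many members of this class the array is joined to a KRAB box, a domain that recruits the corepressor Trim28. Trim28 in turn brings in the histone methyltransferase Setdb1 and HP1 proteins, which form heterochromatin, above all on retroelements and imprinted genes. Other members lack the box and act as activators, architectural factors or cofactors. Many KRAB zinc finger genes are close paralogs that stand side by side in the genome, and no source used here states how reads shared by paralogs were counted, so the split of reads among them is uncertain.

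Few of these genes passed the test between perhexiline and vehicle cells, and most differences were small. Of the 172 that could be tested, 2 passed a Benjamini-Hochberg adjusted p of 0.05 over all genes (limma on log2(FPKM + 1)), both lower with perhexiline, and none passed as higher. That was 1.16% of them, against 6.66% of the 13460 genes tested. By direction, 3.55% of all tested genes were called higher and 3.11% lower. At an unadjusted p under 0.05, 17 zinc finger genes were higher and 9 lower, together 15.1% against 25.7% of all tested genes. Their median log2 difference was 0.04, against 0.01 for all tested genes, and 105 of 172 were above 0 (61.0%, against 52.9%). For 50 of them the 3 perhexiline libraries lay wholly above or below the 3 vehicle libraries, 33 higher and 17 lower, together 29.1% against 31.9% of all tested genes. The median absolute log2 difference was 0.11 for the zinc finger genes and 0.12 for all tested genes, and the 90th percentile of absolute difference was 0.24 against 0.38. With limma-voom on fragment counts recovered from FPKM, 7 were called, 3 higher and 4 lower, against 11.7% of all tested genes. With libraries scaled to their total fragments, 4 were called, 2 higher and 2 lower, against 8.56% of all tested genes, and 124 of 172 lay above 0, while 96 did with upper-quartile scaling.

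**Figure D1:**
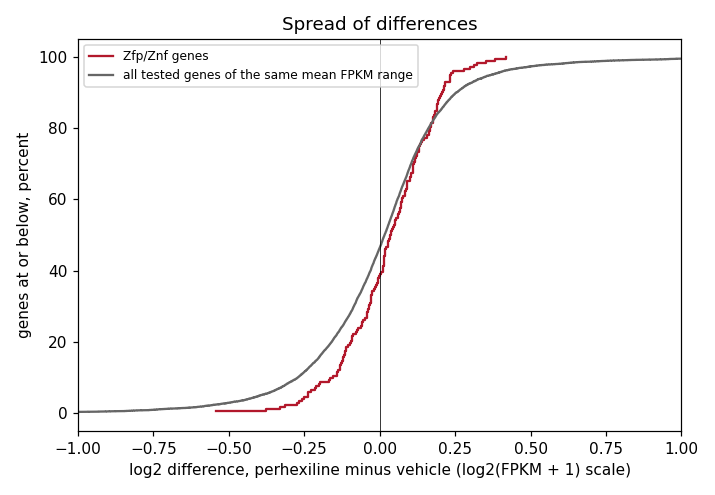
Cumulative share of genes (vertical, percent) at or below each log2 difference, perhexiline minus vehicle on the log2(FPKM + 1) scale (horizontal), for the 172 tested zinc finger genes and for all tested genes in the same range of mean FPKM. The zinc finger curve is steeper, with a 90th percentile of absolute difference of 0.24 against 0.38 for the 11123 tested genes in that range.

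The intervals bound what could have been missed on the log2(FPKM + 1) scale only. The bound used was 0.585 in either direction, the log2 of 1.5. For 164 of the 172 (95.3%) the 95% interval of the log2 difference lay inside it. Because 1 FPKM was added to every value, changes of low genes come out too small on this scale. For low genes an interval inside the bound therefore does not exclude a 1.5-fold change in FPKM. The interval reached the bound upward for 5 genes and downward for 3. Its median half-width was 0.28 for genes of 1 to 5 FPKM and 0.16 for genes of at least 10 FPKM. As ratios of mean FPKM, 155 of the 173 lay between 0.8 and 1.25. The fragments behind a gene averaged 22.8 per library at the lowest, 228 at the median and 3136 at the highest, for Zfp91, so counting error alone is large for the lowest genes.

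Zfp612 and Zfp958 were the genes called. Zfp612, which carries a KRAB entry in the deposited annotation, lies on chromosome 19 from 41559487 to 41567013, and Zfp958 on chromosome 12 from 5485903 to 5490935, in the coordinates of the deposited table, for which no build is stated. Zfp612 had 9.54, 10.5 and 10.5 FPKM in perhexiline libraries, against 12.7, 13.4 and 13.1 FPKM in vehicle libraries. Every perhexiline library was below every vehicle library, and the spread within each group was small. The log2 difference was -0.33 ± 0.065 (SE; limma adjusted p = 0.032), and the mean with perhexiline was 0.78 times that with vehicle. Zfp958 had 7.26, 5.40 and 6.18 FPKM in perhexiline libraries, against 9.56, 10.7 and 8.53 FPKM in vehicle libraries. The groups again did not overlap, but both spread more than for Zfp612. The log2 difference of Zfp958 was -0.54 ± 0.12 (limma adjusted p = 0.039), with a ratio of means of 0.66. Zfp958 had the lowest ratio of the 173 genes. Neither call was stable to the loss of a library: Zfp612 missed the threshold in all 6 fits without 1 library (adjusted p 0.0536 to 0.101) and Zfp958 in 4 of 6 (adjusted p 0.0307 to 0.12 over the 6 fits), namely without perhexiline replicate 2, perhexiline replicate 3, vehicle replicate 1 or vehicle replicate 2. Both missed it with no filter on low values (limma adjusted p = 0.0642 for Zfp612 and 0.0957 for Zfp958).

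The promoter windows of these genes, 250 bases before to 50 after the start of transcription in RefSeq (build GRCr8), are shown because they are the genes the test singled out. Capitals mark an ETS motif, CCGGAAGT read on either strand. The window of Zfp612 is chr19:54963193-54963492 on the plus strand, with 27 CG dinucleotides, and that of Zfp958 is chr12:8750980-8751279 on the plus strand, with 11. Windows were matched by symbol, and the deposited table, in its own coordinates, gives both genes on the same chromosomes but on the minus strand, so that these windows belong to the measured genes by name only.
Zfp612: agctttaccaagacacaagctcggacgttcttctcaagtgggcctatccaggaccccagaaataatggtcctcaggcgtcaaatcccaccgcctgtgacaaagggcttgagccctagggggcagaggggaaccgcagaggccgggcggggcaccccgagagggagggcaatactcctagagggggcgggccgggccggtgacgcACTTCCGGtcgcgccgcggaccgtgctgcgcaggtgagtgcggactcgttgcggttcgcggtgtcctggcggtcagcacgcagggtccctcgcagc
Zfp958: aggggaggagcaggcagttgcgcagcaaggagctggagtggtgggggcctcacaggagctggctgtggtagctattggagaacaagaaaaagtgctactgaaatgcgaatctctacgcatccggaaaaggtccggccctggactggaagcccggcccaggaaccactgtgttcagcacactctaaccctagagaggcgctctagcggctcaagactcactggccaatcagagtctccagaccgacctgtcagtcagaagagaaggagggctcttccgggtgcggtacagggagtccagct
The window of Zfp612 held 1 match, and that of Zfp958 held none.

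**Figure D2:**
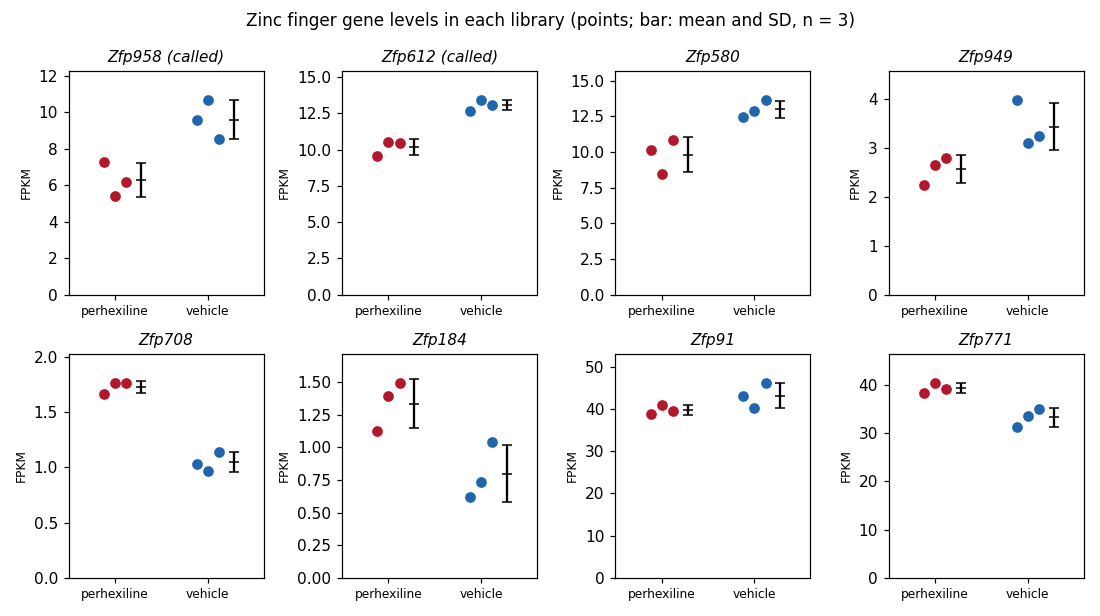
FPKM (vertical, from 0) in each perhexiline and vehicle library for 8 zinc finger genes, with points for libraries and a bar for mean and SD (n = 3 per group). The top row holds the called genes Zfp958 and Zfp612 and the largest negative differences that were not called, Zfp580 and Zfp949; the bottom row holds Zfp708 and Zfp184, the largest positive differences, and the most abundant genes, Zfp91 and Zfp771.

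Markers of the labelled cell type were abundant and moved in the same libraries. Of 8 cardiomyocyte markers listed, 7 were matched by symbol, with means of 115 to 3344 FPKM, and 3 of them fell (Actn2, Myh6 and Tnni3). Their summed level was 7655 to 8597 FPKM in perhexiline libraries and 9088 to 10582 in vehicle libraries. Macrophage and leukocyte markers summed to 26.7 to 37.7 FPKM with perhexiline and 41.97 to 46.3 with vehicle, with 1 of 6 tested lower, and proliferation markers to 13.4 to 17.8 FPKM with perhexiline and 21.3 to 22.6 with vehicle, with 1 of 4 lower. Fibroblast markers summed to 1003 to 1050 FPKM with perhexiline and 1044 to 1083 with vehicle, with 2 of 8 higher and 1 lower. None of the 4 endothelial or 5 smooth muscle and pericyte markers tested was called, at sums of 18.03 to 18.8 and 55.4 to 63.7 FPKM with perhexiline and 16.0 to 19.1 and 60.9 to 64.6 with vehicle. None of the matched markers in any list was at 0. The part of these shifts in the falls of Zfp612 and Zfp958 was not tested, and in bulk libraries fewer cells of a type and less RNA per cell cannot be told apart. Recovered fragments numbered 14863929 to 16702523 in perhexiline libraries and 13616252 to 15241994 in vehicle libraries.

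The largest differences outside the calls ran in both directions. Zfp580 had 10.1, 8.46 and 10.8 FPKM in perhexiline libraries, against 12.5, 12.9 and 13.6 FPKM in vehicle libraries. The groups did not overlap, but the log2 difference of -0.38 ± 0.093 missed the threshold (limma adjusted p = 0.0545). Zfp949 had 2.24, 2.65 and 2.78 FPKM with perhexiline, against 3.97, 3.09 and 3.23 with vehicle (log2 difference -0.32, limma adjusted p = 0.143). Zfp708 had the largest positive log2 difference, with 1.67, 1.76 and 1.76 FPKM in perhexiline libraries against 1.03, 0.963 and 1.14 FPKM in vehicle libraries. All perhexiline libraries of Zfp708 were above all vehicle libraries at a difference of 0.42 ± 0.11 (limma adjusted p = 0.0638), on an average of 35.8 fragments per library. Its mouse counterpart is a KRAB zinc finger protein that silences retroelements. Zfp184 had 1.12, 1.39 and 1.49 FPKM with perhexiline and 0.618, 0.731 and 1.04 with vehicle (log2 difference 0.38, limma adjusted p = 0.15). Zfp184 had the highest ratio of means of the 173 genes, 1.68, and passed with limma-voom (adjusted p = 0.0455). Its vehicle mean was 0.797 FPKM, so it met the level of 1 FPKM only through the perhexiline libraries.

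Some further genes passed only under an alternative, and were picked after their values were seen. Zfp954 had 5.53, 5.38 and 4.97 FPKM in perhexiline libraries, against 4.09, 3.51 and 4.20 in vehicle libraries. All its perhexiline libraries were above all its vehicle libraries (log2 difference 0.35 ± 0.091, limma adjusted p = 0.0603; 0.0436 with total-fragment scaling). Zfp394, whose human counterpart is described as a repressor of MAP kinase signalling, had 6.53, 7.11 and 6.83 FPKM with perhexiline and 4.93, 5.13 and 5.87 with vehicle. Zfp180 had 13.2, 14.3 and 13.6 FPKM with perhexiline and 12.2, 10.5 and 11.6 with vehicle. Both were separated upward, with limma adjusted p of 0.0684 and 0.0873, and of 0.0482 and 0.0475 with limma-voom. Zfp386 had 9.15, 7.83 and 7.87 FPKM with perhexiline, against 10.5, 10.2 and 9.67 with vehicle. Zfp512b had 11.4, 9.69 and 10.7 FPKM with perhexiline, against 13.1, 13.9 and 11.6 with vehicle. Both were separated downward, with limma adjusted p of 0.0857 and 0.12, and of 0.0417 and 0.0484 with limma-voom.

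Levels ran on without a gap across the threshold. Just inside it stood Zfp184, Zfp112 and Zfp169, with means of 1.07, 1.08 and 1.10 FPKM. Just outside stood Zfp260, Zfp455 and Zfp866, with 0.994, 0.981 and 0.980. Zfp169 was the gene that could not be tested, since it had 1.55, 0.878 and 1.28 FPKM in perhexiline libraries and 0.948, 0.999 and 0.933 in vehicle libraries and so reached 1 FPKM in fewer than 3. Zfp260, a regulator of natriuretic peptide genes in the rat heart, had 0.316, 1.37 and 1.39 FPKM with perhexiline and 1.25, 0.536 and 1.09 with vehicle, a spread within each group that exceeds the gap between them. Of the 41 rows below the level, 5 were listed at 0 in all libraries. A further 52 genes with a Zfp or Znf name had another family entry or none and are not counted here. Of these 52, 44 reached a mean of 1 FPKM.

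Most of the 173 genes were expressed at a low level, and 1.07 to 41.4 FPKM spanned them all. Of the 173, 86 averaged 1 to 5 FPKM, 36 averaged 5 to 10 and 51 at least 10, with a median of 5.07. The most abundant was Zfp91, a ubiquitin ligase that promotes the alternative NF-kB pathway, with 38.7, 40.9 and 39.6 FPKM in perhexiline libraries and 43.0, 40.1 and 46.0 in vehicle libraries. The groups overlapped, at a log2 difference of -0.11 (limma adjusted p = 0.292). Zfp771 came next, with 38.3, 40.4 and 39.3 FPKM with perhexiline and 31.2, 33.6 and 35.0 with vehicle. Its libraries did not overlap, and the log2 difference of 0.23 ± 0.057 missed the threshold (limma adjusted p = 0.0526). Znf768, Zfp219, a partner of Sox9 in mouse cartilage cells, and Zfp513 followed, at 29.4 against 29.2, 27.7 against 26.2 and 25.7 against 24.9 FPKM (means with perhexiline against vehicle), with overlapping libraries in each. As neighbours in the order of levels, these last genes differed by less than their spread over libraries.

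The summed level of the 173 genes was 1354 to 1405 FPKM in perhexiline libraries and 1310 to 1374 in vehicle libraries, so the groups overlapped. Shares of calls were also read within bands of level. By limma on log2(FPKM + 1), none of 85 tested zinc finger genes of 1 to 5 FPKM was called, against 3.13% of all tested genes in that band. An unadjusted p under 0.05 was found for 6 of the 85 (7.06%), against 16.8% of all tested genes in that band. Limma-voom called Zfp184 in that band, and total-fragment scaling Zfp954. Of those of 5 to 10 FPKM, 1 of 36 was called, against 4.18%, and of those from 10 FPKM up, 1 of 51, against 8.28% of tested genes between 10 FPKM and the level of Zfp91. Shares at an unadjusted p under 0.05 were closer in these bands, 19.4% against 22.9% and 25.5% against 29.5%. From the lowest band to the highest, libraries did not overlap for 23.5%, 30.6% and 37.3% of zinc finger genes, against 25%, 28.6% and 34.7% of all tested genes. The difference between these shares was not tested.

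**Figure D3:**
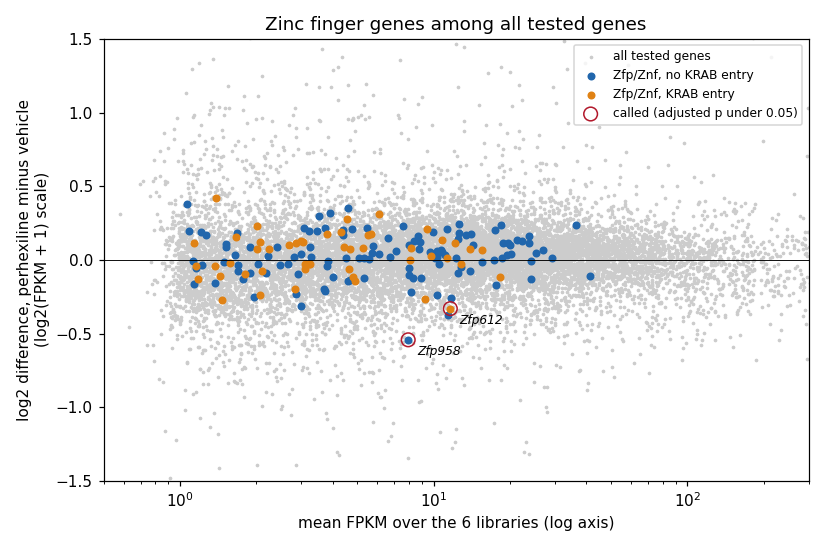
Mean FPKM over the 6 libraries (horizontal, log axis) against the log2 difference, perhexiline minus vehicle on the log2(FPKM + 1) scale (vertical), for the zinc finger genes with and without a KRAB entry, over all tested genes in grey; grey points beyond the axes are not drawn. The called genes Zfp612 and Zfp958 are ringed, at -0.33 and -0.54, and the other zinc finger genes lie between -0.38 and 0.42.

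Genes with and without a KRAB entry had 1 call each. The deposited annotation lists a KRAB box for 51 of the 173 and a SCAN domain, an oligomerization domain found beside zinc fingers, for 12, with 6 carrying both. A missing entry does not show that a protein lacks the box, since the entry is also missing for Zfp354a, the rat protein known as Kid-1, which has one. Genes with a KRAB entry were less abundant, with a median of 3.24 FPKM against 6.68 for those without. Of 50 tested genes with the entry, 1 was called (Zfp612, 2.00%), 28 lay above 0 and the median log2 difference was 0.07. Of 122 without it, 1 was called (Zfp958, 0.82%), 77 lay above 0 and the median was 0.03. None of the 12 SCAN genes was called by limma, against 6.66% of all tested genes. Of the 12, 1 had an unadjusted p under 0.05 (8.33%, against 25.7% of all tested genes), and 12 genes are few for such shares. Perhexiline and vehicle libraries were apart for 14 of 50 genes with a KRAB entry and for 36 of 122 without (29.5%), beside 31.9% of all tested genes. The difference between the classes was not tested.

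Roles of well-studied members give the next view. Of 40 listed symbols, 19 met the rule, none was called by limma in either direction, 7 had an unadjusted p under 0.05 (36.8%) and 15 lay above 0 (78.9%). Of all tested genes, 6.66% were called, 25.7% had an unadjusted p under 0.05 and 52.9% lay above 0, and the difference from these shares was not tested. Limma-voom on recovered fragments called none of them either. None of the 9 listed genes of RNA and ribosome biology met the rule. The rule also asks for the family entry, so this does not show that they were not expressed.

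Among the 12 promoter and enhancer binding factors the median log2 difference was 0.09, and 10 lay above 0. Zfp143, an activator that binds many promoters, had 11.5, 13.2 and 11.9 FPKM in perhexiline libraries, against 10.3, 9.70 and 11.2 in vehicle libraries. The groups did not overlap, at a log2 difference of 0.21 ± 0.078 (limma adjusted p = 0.142). Its close relative Zfp523 averaged 15.5 FPKM with perhexiline and 15.6 with vehicle, with a 95% interval of the log2 difference of -0.14 to 0.11. Zfp281, a repressor of Nanog in embryonic stem cells, had 12.7, 13.97 and 13.8 FPKM with perhexiline and 12.1, 11.5 and 11.8 with vehicle (limma adjusted p = 0.126). Zfp410, an activator of the chromatin remodeller gene Chd4, had 13.6, 12.9 and 13.0 FPKM with perhexiline and 11.7, 12.1 and 11.7 with vehicle (limma adjusted p = 0.175). Zfp384 and Zfp335 likewise had all perhexiline libraries above all vehicle libraries, at means of 22.2 against 20.2 and 23.3 against 21.2 FPKM (perhexiline against vehicle), and missed the threshold (limma adjusted p = 0.161 and 0.184). For Zfp148, Zfp219, Zfp64 and Zfp263 the libraries overlapped, with log2 differences of 0.04, 0.07, 0.10 and 0.04. Zfp423 and Zfp521, paralogs that act in opposite directions on adipocyte commitment, averaged 1.12 against 1.20 and 2.84 against 2.78 FPKM (perhexiline against vehicle), with overlapping libraries.

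The 3 genes of imprinting and retroelement control divided. Zfp57, which keeps imprinted regions methylated through Trim28 in the mouse, had 8.35, 7.99 and 8.77 FPKM in perhexiline libraries and 7.78, 7.42 and 8.34 in vehicle libraries, an overlap between groups. Zfp445, which shares that task in the mouse, had 16.9, 17.5 and 18.1 FPKM with perhexiline and 19.2, 19.3 and 18.6 with vehicle. Its perhexiline libraries were all below its vehicle libraries, at a log2 difference of -0.12 ± 0.054 (limma adjusted p = 0.227). The third was Zfp708, given above.

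Among genes of signalling and metabolism, Zfp746, known as PARIS, a repressor of the mitochondrial biogenesis coactivator PGC-1α and a substrate of parkin, had 9.66, 10.3 and 10.5 FPKM in perhexiline libraries and 8.49, 9.13 and 8.35 in vehicle libraries. These groups did not overlap, at a log2 difference of 0.21 ± 0.068 (limma adjusted p = 0.105). Zfp516, an activator of Ucp1 in brown fat, averaged 9.004 FPKM with perhexiline and 8.49 with vehicle (limma adjusted p = 0.551), with overlapping libraries. Of 6 symbols in a separate list for heart and muscle, only 1 met the rule, the GATA cofactor Zfpm1. Zfpm1 averaged 18.7 ± 1.13 FPKM with perhexiline and 18.5 ± 1.10 with vehicle (SD, n = 3 each). The 95% interval of its log2 difference was -0.15 to 0.17.

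**Figure D4:**
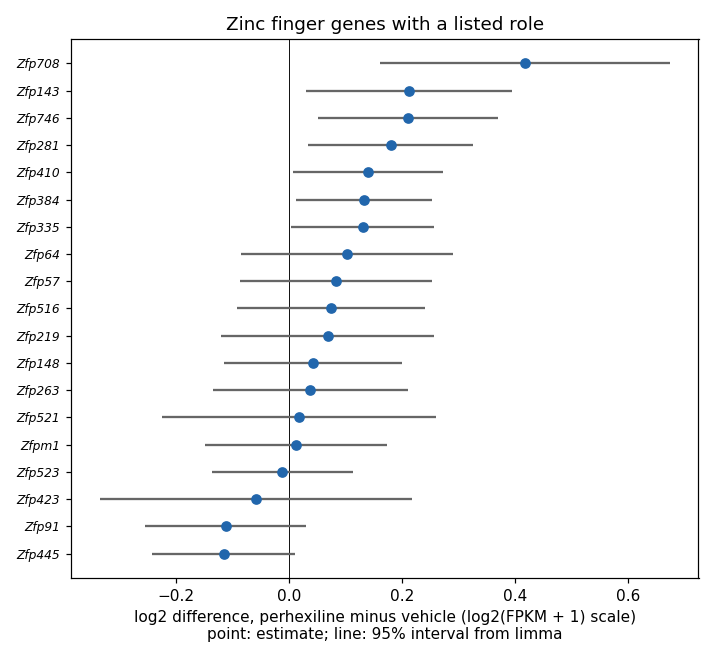
Log2 difference, perhexiline minus vehicle on the log2(FPKM + 1) scale (horizontal), with its 95% interval from limma, for the 19 zinc finger genes with a listed role. Estimates run from -0.12 for Zfp445 to 0.42 for Zfp708, and none passed the adjusted threshold.

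Trim28 and the machinery it recruits were read from a list of 43 symbols, of which 38 genes were tested. None of the 38 was called by limma in either direction, 5 were higher and 4 lower at an unadjusted p under 0.05 (together 23.7%, against 25.7% of all tested genes), and the median log2 difference was 0.00. Trim28 itself had 131, 135 and 134 FPKM in perhexiline libraries and 118, 126 and 124 in vehicle libraries, each perhexiline library above each vehicle library (limma adjusted p = 0.146). Setdb1 had 14.1, 14.2 and 14.2 FPKM with perhexiline and 13.5, 13.5 and 15.4 with vehicle. Of the HP1 genes, Cbx3 had 37.3, 33.3 and 32.1 FPKM with perhexiline, against 42.2, 39.9 and 39.7 with vehicle (limma adjusted p = 0.0698), while the libraries overlapped for Cbx1 and Cbx5.

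Neighbouring genes were described by their position in the deposited table. Chromosome 1 held 49 of the 173, and of its genes whose libraries did not overlap, 15 were higher and 1 lower with perhexiline (30.6% and 2.04% of those tested), against 18 and 16 on the other chromosomes (14.6% and 13.0%) and 17% and 14.9% of all tested genes. On chromosome 1, 63.3% lay above 0 and 14.3% had an unadjusted p under 0.05, against 60.2% and 15.4% on the other chromosomes, and none was called by limma on log2(FPKM + 1). Chromosome 1 was singled out after its values were seen, and the difference was not tested. Counting genes no more than 500 kb apart as neighbours, 68 genes stood in 14 groups of 3 or more. The groups below were picked after their values were seen and were not tested. A group of 7 on chromosome 7 (15024693 to 15790366) had 1 gene above 0, Zfp871 at a log2 difference of 0.06, and the others down to -0.25, with libraries entirely lower for Zfp799, Zfp763 and Zfp955a. Zfp955a, for one, had 3.45, 3.25 and 3.42 FPKM with perhexiline and 3.94, 4.18 and 3.95 with vehicle (limma adjusted p = 0.176). A group of 8 on chromosome 4 (77519028 to 78258545), which holds Zfp746, had 7 above 0, and a group of 8 on chromosome 1 (198682230 to 199330997), which holds Zfp771, had 6 above 0. A group of 4 on chromosome 7 (116653664 to 117032863) had all 4 above 0, from 0.09 for Zfp41 to 0.30 for Zfp707, and the libraries of each overlapped. No gene in these groups was called by limma on log2(FPKM + 1); Zfp771 was called with total-fragment scaling (adjusted p = 0.0393) and without vehicle replicate 3 (adjusted p = 0.0471).

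The promoters were read for sequence features that the rule did not use. RefSeq windows of build GRCr8 could be matched by symbol or synonym for 144 of the 173 genes. The windows were searched on both strands for 6 motifs: the Zfp143 type (ACTACA, any pair of bases, then TCC), the ETS type CCGGAAGT, the YY1 type AAGATGGCG, the NRF1 type (GCGCA followed directly by TGCGC), the CRE TGACGTCA and the kappa B type (GGGA, any 4 bases, then CC). A symbol with several windows counted once if any window matched. The Zfp143 type was found for 18 of the 144 (12.5%), against 5.88% of 85 other C2H2 genes, 4.58% of tested genes and 2.07% of all 27457 symbols with a window. The match by symbol was not always the measured locus: the windows of Zfp146, 1 of the 18, and of Zfp758 lie on another chromosome than the deposited table gives, and 9 more on the same chromosome but the other strand, Zfp612, Zfp958 and Zfp110 among them. Counting only genes with a window on the same chromosome, the motif was found for 17 of 142 (12%), against 4.60% of tested genes. It overlapped no ETS match in the zinc finger windows. The ETS type was found for 9.72% of the zinc finger genes and 8.80% of tested genes, YY1 for 4.86% and 4.02%, NRF1 for 2.78% and 1.98%, the CRE for 1.39% and 3.30%, and kappa B for 19.4% and 26.8%. Over all symbols these shares were 4.2% for ETS, 1.99% for YY1, 0.954% for NRF1, 2.00% for the CRE and 20.9% for kappa B. The differences between these shares were not tested, and the motifs were chosen with the data at hand. The zinc finger windows had a median of 18 CG dinucleotides, against 21 for tested genes and 7 for all symbols.

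**Figure D5:**
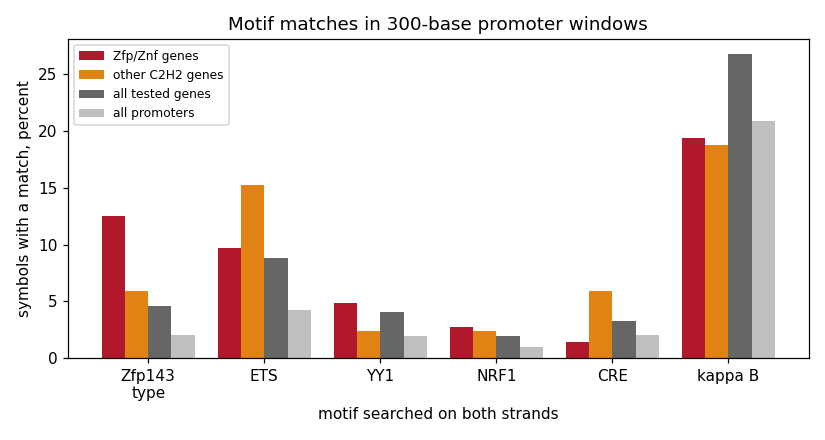
Share of symbols (vertical, percent) with at least 1 match on either strand in a 300-base promoter window, for each of 6 motifs (horizontal), in zinc finger genes, other C2H2 genes, all tested genes and all symbols with a window. The Zfp143 type stands at 12.5% in zinc finger genes and 4.58% in tested genes.

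Matches of some of the 18 genes are given below as examples, because the matches are alike beyond the letters searched. They are read on the strand that carries the motif, with the motif letters in capitals and the 4 bases on each side in lower case. Over the 18 genes there were 21 distinct sites with flanks, of which 21 went on with c and 19 with c and a. The windows of the examples are all GRCr8 and on the plus strand. They are chr10:35897013-35897312 (Zfp354a), chr1:88780092-88780391 (Zfp180), chr19:56509080-56509379 (Zfp1), chr1:82517803-82518102 (Zfp110), chr1:94114573-94114872 (Zfp84) and chr10:42988696-42988995 (Zfp692).
Zfp354a: gtggACTACATTTCCcaga
Zfp180: tgtaACTACAATTCCcaga
Zfp1: taggACTACAATTCCcata
Zfp110: ccgaACTACAACTCCcaga
Zfp84: gtggACTACATTTCCcaga
Zfp692: gctaACTACAATTCCcggt
Zfp708, the gene with the largest positive difference, and Zfp112 had 3 matches in 1 window, the most of the 18. The first of 4 windows of Zfp708, chr2:86233371-86233670 on the minus strand, is shown because its matches are evenly spaced, at positions -132, -97 and -62 from the start. The bases around the matches repeat with them, so the 3 are copies within 1 tandem repeat. The window of Zfp708 that starts at 86233366 overlaps this one and also held 3, while those that start at 86208212 and 86208209 held 1 each. Capitals mark the matches, read here on the opposite strand to the motif.
Zfp708: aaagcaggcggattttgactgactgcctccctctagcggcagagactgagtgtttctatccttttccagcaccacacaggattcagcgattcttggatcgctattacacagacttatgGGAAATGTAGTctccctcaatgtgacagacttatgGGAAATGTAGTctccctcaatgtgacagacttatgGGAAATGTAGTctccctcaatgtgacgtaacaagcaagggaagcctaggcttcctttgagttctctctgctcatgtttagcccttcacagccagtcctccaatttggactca
The 18 genes with a match had a median log2 difference of 0.08 (range -0.27 to 0.42), with 10 above 0 and none called by limma, while the 126 without had a median of 0.03 (range -0.54 to 0.38), with 75 above 0 and 2 called. The median level was 4.58 FPKM with a match and 5.39 FPKM without. With genes on the same chromosome only, the median log2 difference was 0.07 for 17 genes with a match, 9 of them above 0, and 0.03 for 125 without, 75 of them above 0. A match is a stretch of letters and not a measured binding site.

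Other genes of the same family entry, such as those with KLF, EGR or other names, served as the nearest comparison. Of 175 with a mean of at least 1 FPKM, 6 were called, all higher with perhexiline (3.43%), and the libraries did not overlap for 19.4%. An unadjusted p under 0.05 was found for 13.7% of the 175, and 55.4% lay above 0. Over the 863 tested genes with any transcription factor family entry, 6.26% were called, 41 higher and 13 lower. The differences between these lists and the Zfp and Znf genes were not tested.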

How the data were processed

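Poly(A) RNA of 6 libraries was sequenced, and the authors deposited 1 table with FPKM per gene and library, per the file headers, with gene length, position, description and family entry. HISAT2 2.0.5 appears in the submitters' processing notes beside DESeq2, with no role stated for either. No source used here gives the build, the annotation, the counting program or its strand setting; the libraries were stranded, per the labels' protocols. FPKM times gene length was a whole multiple of 1 step per library, within 0.01 of a fragment, for 100% of positive values, which gave fragments and depth. The library scaling in the deposited FPKM matched median-of-ratios factors to within 0.941% in every library. Such a factor is a library's median ratio to the geometric mean of each gene. The total implied by the scaling was 1.04 to 1.06 times the recovered fragments in perhexiline libraries and 0.992 to 1.03 times in vehicle libraries. Replicates of a group had no identical positive values, and their fragments differed by more than sampling noise (chi-square per degree of freedom 4.44 to 7.63).

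Genes with at least 1 FPKM in at least 3 libraries were tested with limma 3.58.1 in R 4.3.3 on log2(FPKM + 1), with group as the only term, empirical Bayes with a mean-variance trend, two-sided. P-values were Benjamini-Hochberg adjusted over all tested genes and called under 0.05. The procedure was also run on simulated fragments with the same extra spread set for every gene. Real replicates need not share that spread, and no result here rests on the run. Alternatives were a pseudocount of 0.1, 2 other filters, total-fragment and upper-quartile scaling, limma-voom on fragments, the replicate number as a block, a mean of at least 2 FPKM for the zinc finger genes, and each library left out. The genes and lists were chosen with earlier results of these data known, and the motifs after the table was seen. No list was tested. A planned classification from protein sequences was replaced by the deposited Pfam entries (KRAB, SCAN). Named were the called genes, the 5 most abundant, those with a listed role, those at the level threshold and the 2 largest uncalled differences in each direction; others are said to be picked after their values were seen or are named for a sequence, a position or a call under an alternative.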

Additional observations from a re-analysis of the deposited data

How the results depend on the processing

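No zinc finger gene kept a call under every alternative. The count over all genes, 896 as reported, was 162 with no filter on low values, 1570 with limma-voom and 173 with the replicate block, and 108 to 894 without 1 library. The zinc finger genes called lower, 2 as reported, numbered 4 with limma-voom, 0 with no filter, 0 with the replicate block and 0 to 1 without 1 library. Those called higher, 0 as reported, numbered 2 under total-fragment scaling (Zfp771 and Zfp954), 3 with limma-voom (Zfp180, Zfp184 and Zfp394) and 0 to 1 without 1 library (Zfp771 without vehicle replicate 3). The further falls with limma-voom were Zfp386 and Zfp512b. The median log2 difference was 0.087 under total-fragment scaling, where that of all genes was 0.06, and 0.02 to 0.06 without 1 library. The split of all calls was 53.3% higher as reported, 70.7% under total-fragment scaling and 46.7% under upper-quartile scaling. Of 429 values of 33 named genes under 13 alternatives, 395 kept direction and side of the threshold, 14 lost and 8 gained a call, and 12 changed sign, all at an adjusted p far above the threshold. The sign changes were Zfp523 at 0.041 under total-fragment scaling, and Zfpm1 at -0.0036 and Znf768 at -0.0056 under upper-quartile scaling. Without 1 library, the log2 differences ran from -0.033 to 0.052 for Zfpm1, -0.026 to 0.0069 for Zfp523, -0.053 to 0.064 for Zfp521, -0.073 to 0.092 for Znf768 and -0.000495 to 0.069 for Zfp263. The cause of these changes was not tested. Libraries with the same replicate number did not deviate together (residual correlation -0.023, -0.101 and -0.039). No library correlated best with its own number, so no pairing by number was detected. Correlations this small cannot show whether equal numbers shared a preparation. Depth limits the lowest genes most.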
